A study of Homo sapiens with 12 samples.

Results

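The replication-dependent histone genes are the 73 genes, of 26485 listed, whose names begin with HIST1H, HIST2H, HIST3H or HIST4H. Members were taken by name and not by level, and are grouped by name into genes of the linker histone H1 (6 genes) and the core histones H2A (18), H2B (20), H3 (14) and H4 (15), a few of them pseudogenes such as HIST1H2APS1 and HIST2H2BA. RNA was measured in OVCAR8 cells, a human line from an ovarian carcinoma that is established in culture, after 7 h with vehicle (Control), with 150 nM EC359 (an inhibitor of the LIF receptor LIFR), with 100 nM trametinib (an inhibitor of the kinases MEK1 and MEK2) or with both agents at these doses (Combination). All 12 libraries, 3 per condition, came from this 1 cell line, and the labels do not say whether replicates were separate cultures, so p-values measure the spread between these libraries, which may be technical. In bulk RNA, more cells that express a gene and more RNA per cell cannot be told apart.

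Histones package DNA. H2A, H2B, H3 and H4 form the nucleosome core, and H1 binds the DNA between nucleosomes. Replication-dependent histone genes have no introns in their main transcripts, lie in clusters, and are expressed mainly in S phase, when new DNA must be packaged. Their messages usually end in a short stem-loop in place of a poly(A) tail. The stem-loop binding protein SLBP and the U7 small nuclear ribonucleoprotein recognise and cut that end, and the messages are degraded when replication stops. Some histone genes also give polyadenylated transcripts, which matters here because the libraries were made from polyadenylated RNA.

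The stem-loop is shown first, since it is the end that a poly(A) library is not designed to capture. A 16-base pattern (GG, 3 free bases, TTTT, 1 free base, A, 3 free bases and CC, with all 6 stem positions able to pair) was searched in GENCODE 29 transcripts (GRCh38, transcript strand only) and was found in 32 of the 73 histone genes, against 0.0638% of 83048 coding transcripts of other genes. No match says only that these letters are not in the annotated transcripts. Of the 5 sequence forms found, those of H4 genes were not shared with the other types. The form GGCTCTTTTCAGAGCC was in 17 genes, none of them H4, and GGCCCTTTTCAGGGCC was in 5 genes, all of them H4. Examples are given 5′ to 3′ on the transcript strand, with the stem-loop in capitals.
HIST1H4E, chr6:26204996-26205021, plus strand: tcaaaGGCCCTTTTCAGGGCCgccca
HIST1H4B, chr6:26026896-26026921, minus strand: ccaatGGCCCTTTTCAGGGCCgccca
HIST1H2AC, chr6:26124664-26124689, plus strand: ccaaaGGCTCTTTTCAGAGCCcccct
HIST1H2BD, chr6:26158582-26158607, plus strand: ccaaaGGCTCTTTTAAGAGCCacgca
The deposited gene models ended within 30 bases past the stem-loop in 25 of the 32 genes. In 19 genes the GENCODE transcript ran more than 100 bases further than the deposited model. For HIST1H2AC the deposited model stopped 6 bases past the stem-loop and the GENCODE transcript ran on for 1128 bases, so reads lying wholly in that extension were not counted.

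The histone genes were a small part of each library. Library totals were 24790392 to 32467283 counts, of which the 73 genes held between 1478 and 2553. Expression is given as CPM, counts relative to the library total and scaled by the trimmed mean of M-values. Of the 73 genes, 6 had no count in any library (HIST3H3, HIST1H2AA, HIST1H2BA, HIST1H2APS1, HIST1H1A and HIST1H4G), which allows a level of up to 0.0883 to 0.127 CPM depending on the library. A further 24 had some counts but too few to test, and 43 were tested: 4 H1, 11 H2A, 13 H2B, 9 H3 and 6 H4 genes. The 6 genes HIST2H4A, HIST2H4B, HIST2H3A, HIST2H3C, HIST2H2AA3 and HIST2H2AA4 are pairs with a near-identical copy, and the counting left out reads of low mapping quality, so their levels of at most 2.5 counts say nothing about their expression. The tested genes had a median of 0.719 CPM, and 14 genes reached a mean of 1 CPM. HIST1H2BK had the highest mean level, 15.8 CPM.

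Levels between genes are compared per kilobase of deposited model. HIST3H2A (20.4 CPM per kb over all libraries), HIST1H2BK (18.9), HIST1H2BH (14.1) and HIST1H4C (13.1) stood above the other histone genes, and HIST1H1C, which encodes H1.2, followed at 4.74. In Control the order was HIST1H2BK at 21.0, HIST3H2A at 17.8, HIST1H2BH at 14.0 and HIST1H4C at 8.08 CPM per kb. In the Combination HIST1H4C came first at 34.8, followed by HIST3H2A at 25.3, HIST1H2BK at 17.9 and HIST1H2BH at 12.6 CPM per kb. HIST1H4C was thus below the other 3 in Control and above them in the Combination.

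Genes that MEK and ERK drive were low in both groups with trametinib and high with EC359. DUSP6, SPRY4 and ETV5, feedback and target genes of ERK, together held 106 to 115 CPM in Control, 205 to 215 with EC359, 4.81 to 5.52 with trametinib and 10.4 to 10.7 in the Combination. Of 9 markers of an ovarian carcinoma line, 6 were tested and the ovarian lineage factor PAX8 was at 75.8 CPM in Control, while MUC16 (0.006 CPM over all libraries) and KRT19 (0.010 CPM) were near 0. Blood markers summed to between 0.465 and 1.01 CPM, with PTPRC, CD3E and HBB at 0. Fibroblast markers summed to between 0.607 and 1.40 CPM, with DCN at 0, and endothelial markers to between 0.113 and 0.589 CPM.

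With both agents, the summed level was furthest from Control for H4 and nearest to it for H2B. The summed H4 level was 5.64, 8.72 and 4.22 CPM in the Control libraries, 5.03, 4.97 and 7.64 with EC359, 3.96, 4.25 and 3.37 with trametinib, and 18.4, 21.7 and 19.0 in the Combination. The Combination libraries lay above all others, and their mean was 3.18 times that of Control. The H3 sum was 1.76 times Control (8.62 ± 1.42 against 4.90 ± 1.76 CPM, SD, n = 3), the H1 sum 1.46 times (7.95 ± 1.20 against 5.45 ± 0.417) and the H2A sum 1.40 times (23.3 ± 0.515 against 16.7 ± 2.50). The H2B sum was 1.05 times Control (33.6 ± 1.27 against 32.1 ± 1.51), and the H2B groups overlapped. Without its most abundant gene, the ratio to Control was 2.02 for H4 (without HIST1H4C), 1.85 for H1 (without HIST1H1C), 1.69 for H3 (without HIST1H3D), 1.37 for H2A (without HIST3H2A) and 1.29 for H2B (without HIST1H2BK). These sums are descriptions and carry no test.

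**Figure D1:**
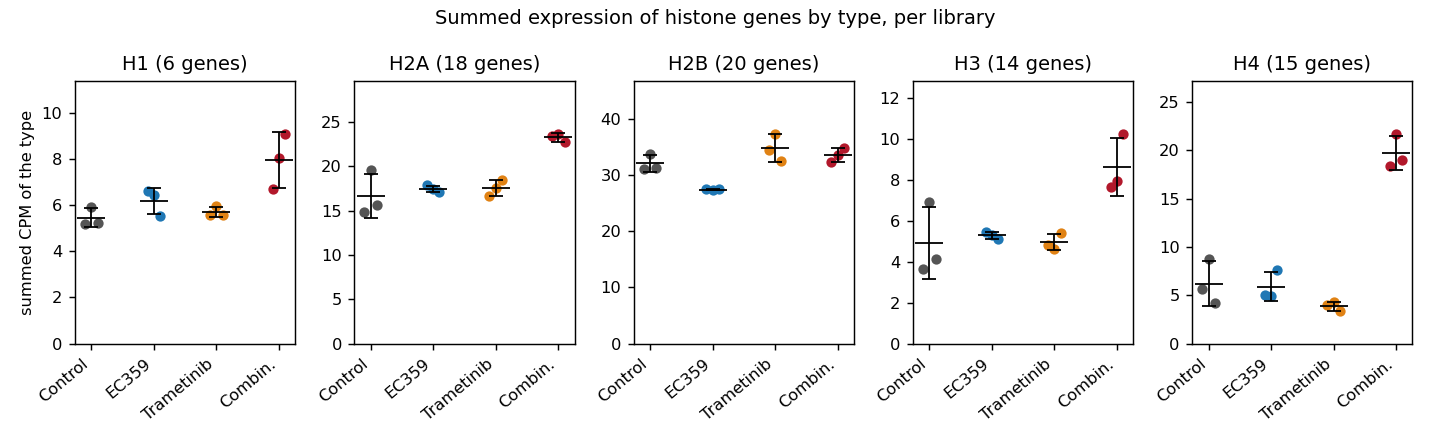
Summed CPM of the histone genes of each type (y axis) in the 12 libraries by condition (x axis); points are libraries and the black marks are the mean and SD of 3 libraries. The 3 Combination libraries stand above the other 9 for H4 (18.4 to 21.7 against 3.37 to 8.72 CPM), while for H2B the EC359 libraries lie lowest at 27.3 to 27.5 CPM.

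Gene by gene, 22 of the 43 tested histone genes rose in the Combination against Control and 2 fell (edgeR quasi-likelihood test, Benjamini-Hochberg adjusted p under 0.05 over 14865 genes). Over all genes tested, 35.0% rose and 34.7% fell, so the histone share of 51.2% rising was above that background and the share of 4.65% falling was below it. The 3 Combination libraries all lay above the 3 Control libraries in 20 of the 43 (36.0% of all genes) and all below in 2 (35.8% of all genes). At a change of at least 2-fold, 17 of the 43 rose against 7.27% of all genes. The median log2 fold change was 0.69 over the histone genes and -0.01 over all genes. Of the 22, HIST1H4B, HIST1H2BL, HIST1H4L and HIST1H2BO passed the filter on low counts only because of their Combination libraries, so they had to be higher there. The other 18 did not depend on the Combination libraries to be tested. Among them, HIST1H2AH, HIST1H2BF, HIST1H2BN, HIST1H3I and HIST2H2BF had mean Control levels under the 0.354 CPM minimum of the filter. Their tests thus needed libraries of treated groups, and a rise over Control was favoured. Scaled to library totals only, the median of all genes shifted to -0.14, and 19 histone genes rose and 3 fell.

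HIST1H4C, one of the genes for the H4 core histone, carried the largest rise. Its level was 2.68, 5.10 and 1.68 CPM in Control, 1.27, 1.81 and 4.26 with EC359, 1.34, 1.14 and 1.30 with trametinib, and 12.8, 15.4 and 12.5 in the Combination. All 3 Combination libraries were above the other 9, and Control and EC359 each held 1 library well above its fellows. The log2 fold change against Control was 2.11 ± 0.44 (SE, adjusted p = 0.00247), a 4.31-fold rise. Its share of all histone reads was 4.83% in Control and 14.6% in the Combination.

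The other H4 genes were far lower in level. HIST1H4E was at 1.07, 0.856 and 0.618 CPM in Control, 0.972, 0.739 and 1.10 with EC359, 0.531, 0.646 and 0.552 with trametinib, and 1.72, 2.53 and 1.97 in the Combination. It rose by a log2 of 1.30 ± 0.26 (adjusted p = 1.09e-05), with the Combination libraries above all others. HIST1H4B, at 0.107, 0.285 and 0.294 CPM in Control and 0.758, 0.820 and 0.827 in the Combination, rose by 1.76 ± 0.43 on the log2 scale (adjusted p = 0.000156). HIST1H4H rose by 1.06 ± 0.31 (adjusted p = 0.00204) and HIST1H4L by 1.23 ± 0.57 (adjusted p = 0.0416). HIST1H4B and HIST1H4L were tested only because their Combination libraries passed the filter, so their rises are no support for a change in H4 genes. The HIST1H4L call was also lost without any 1 of Combination replicates 2 and 3 and the 3 Control libraries (adjusted p from 0.054 to 0.38). HIST1H4D did not pass the test, with a log2 value of 0.63 ± 0.40 (adjusted p = 0.151).

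Of the 9 tested H3 genes, 3 rose and none fell, and the share rising was close to the 35.0% of all genes. HIST1H3B was at 0.464, 1.24 and 0.559 CPM in Control and 1.04, 2.06 and 1.95 in the Combination. The groups overlapped through Control replicate 2, and the log2 fold change was 1.15 ± 0.32 (adjusted p = 0.00146). HIST1H3I rose by 1.69 ± 0.48 (adjusted p = 0.000889), but its mean Control level was under the 0.354 CPM filter minimum, so a rise was favoured. HIST1H3D rose by 1.05 ± 0.25 (adjusted p = 0.000242), but its deposited exons overlap those of HIST1H2AD on the same strand, so reads there were split between them and neither value stands alone. Among H1 genes, 2 of 4 rose (background 35.0%). HIST1H1E, which encodes H1.4, went from 1.04, 1.11 and 0.824 CPM in Control to 2.0, 2.16 and 2.74, a log2 rise of 1.22 ± 0.23 (adjusted p = 4.27e-06) with no overlap. HIST1H1B, which encodes H1.5, rose by 0.74 ± 0.28 (adjusted p = 0.0159), but this call was lost without Control replicate 1 (adjusted p = 0.10), Combination replicate 2 (0.12) or Combination replicate 3 (0.11). HIST1H1C, the most abundant H1 gene, had a log2 value of 0.26 ± 0.15 (adjusted p = 0.135).

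Of the 11 tested H2A genes, 5 rose and 1 fell (background 35.0% and 34.7% of all genes). The 5 include HIST1H2AD, which shares reads with HIST1H3D. HIST3H2A was at 7.75, 9.86 and 8.95 CPM in Control, 9.89, 10.5 and 9.89 with EC359, 8.18, 8.58 and 9.96 with trametinib, and 12.8, 13.0 and 11.9 in the Combination. The Combination libraries lay above the rest, and the log2 fold change was 0.50 ± 0.09 (adjusted p = 2.46e-06). HIST1H2AE went from 0.893, 0.761 and 0.736 CPM in Control to 2.20, 2.35 and 1.69 CPM, a log2 rise of 1.38 ± 0.24 (adjusted p = 1.23e-06) with no overlap. HIST1H2AC was the exception, at 2.75, 2.19 and 2.30 CPM in Control, 1.61, 1.41 and 0.906 with EC359, 2.84, 3.16 and 2.76 with trametinib, and 1.72, 1.38 and 2.22 in the Combination. Control and Combination overlapped, with a log2 value of -0.44 ± 0.20 (adjusted p = 0.0466). That call was lost without Control replicate 1 (adjusted p = 0.18) or 3 (0.058) and without Combination replicate 1 (0.098) or 2 (0.25).

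Of the 13 tested H2B genes, 7 rose and 1 fell (background 35.0% and 34.7% of all genes). All but HIST1H2BD, a gene with known polyadenylated transcripts, had means under 1 CPM, such as HIST1H2BN (0.321, 0.254 and 0.324 CPM in Control, 0.719, 0.782 and 1.32 in the Combination), which rose by a log2 of 1.64 ± 0.38 (adjusted p = 8.40e-05). HIST2H2BF rose by 1.36 ± 0.39 (adjusted p = 0.00120) and HIST1H2BO by 1.60 ± 0.46 (adjusted p = 0.00121). HIST1H2BO and HIST1H2BL, both among the 7, were tested only through the Combination and so had to be higher there. HIST1H2BN, HIST2H2BF and HIST1H2BF, also among the 7, had mean Control levels under the 0.354 CPM filter minimum, so a rise was favoured. The gene that fell was the most abundant histone gene, HIST1H2BK. It was at 17.5, 18.5 and 17.0 CPM in Control, 11.5, 12.8 and 11.9 with EC359, 19.3, 19.9 and 16.7 with trametinib, and 15.6, 14.4 and 15 in the Combination. The Combination libraries lay below Control and above EC359, and the log2 change against Control was -0.23 ± 0.07 (adjusted p = 0.00313). HIST1H2BH, the second H2B gene by level, had a log2 value of -0.15 ± 0.12 (adjusted p = 0.254). HIST1H2BG (0.41 ± 0.26, adjusted p = 0.159) and the H2A gene HIST1H2AG (0.28 ± 0.27, adjusted p = 0.344) did not pass the test either.

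**Figure D2:**
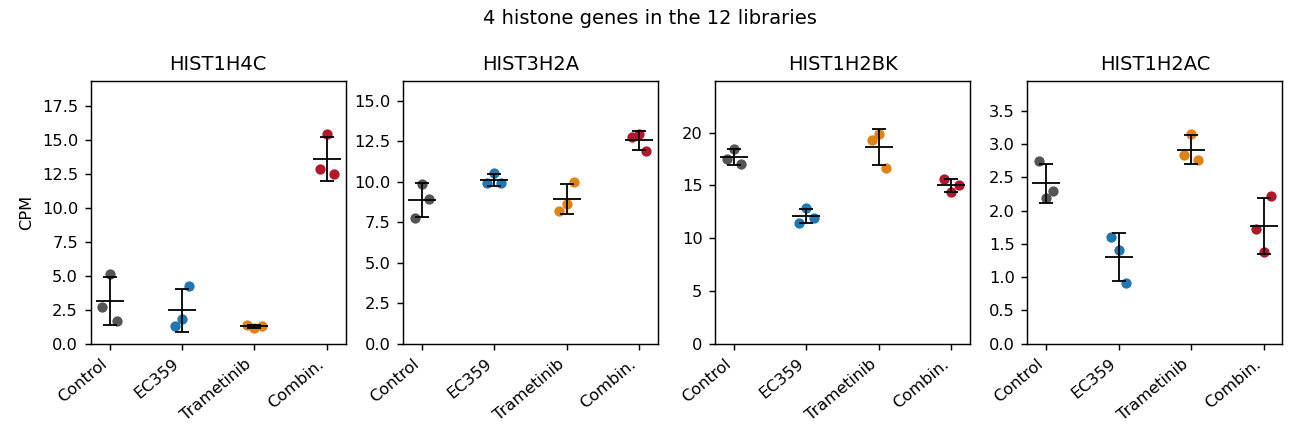
CPM (y axis) of 4 histone genes in the 12 libraries by condition (x axis); points are libraries and black marks the mean and SD of 3 libraries. HIST1H4C and HIST3H2A are highest in the Combination, while HIST1H2BK and HIST1H2AC have their lowest means with EC359.

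Both genes that fell are on a short list of histone genes known for polyadenylated transcripts: HIST1H1C, HIST1H2AC, HIST1H2BD, HIST1H2BK and HIST2H2BE. Of these 5, HIST1H2BD rose in the Combination, 2 fell and 2 did not pass the test. Over all genes 35.0% rose and 34.7% fell, so 2 of 5 falling was near the share of all genes. HIST1H2BD rose by a log2 of 0.56 ± 0.18 (adjusted p = 0.00389), a call lost without Combination replicate 2 (adjusted p = 0.079). Of the 38 other tested histone genes, 21 rose and none fell, and the 21 include the 4 genes tested only through the Combination. The summed level of the 5 genes was 26.5 ± 1.05 CPM in Control and 25.3 ± 0.708 in the Combination (SD, n = 3), a ratio of 0.954, and that of the other 68 was 38.8 ± 7.45 against 67.9 ± 3.64, a ratio of 1.75. The median log2 fold change was 0.26 over the 5 and 0.74 over the 38. Genes off the list can also have GENCODE transcripts that run far past the stem-loop. Among these, HIST1H4E (1022 bases past it) and HIST1H4H (1655) rose, and HIST1H2BH (1640) and HIST1H2AG (1761) did not pass the test. The list thus does not mark all genes with long annotated transcripts, and the difference between the lists was not tested.

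Many H2A and H2B genes stand head to head, with a short shared promoter between them. Of 12 such pairs within 1000 bases (224 to 347 bases between annotated starts), 8 had both genes tested. In the Combination both genes rose in 2 of the 8 pairs and only 1 rose in 4 pairs. These 4 include the 2 pairs whose log2 values had opposite signs. In the pairs HIST1H2AG with HIST1H2BJ and HIST2H2AC with HIST2H2BE, neither gene passed the test. A pair where both rose holds HIST1H2AD, whose exons overlap those of HIST1H3D, so its value does not stand alone. The rises include HIST1H2BO, in a pair where both rose, and HIST1H2BL, in a pair where only it rose. Both were tested only through the Combination. The opposite-sign pairs were those that hold HIST1H2AC and HIST1H2BK. Across 241 bases, HIST1H2AC stood at -0.44 while its partner HIST1H2BC rose by 0.75 ± 0.34 (adjusted p = 0.0476), a call lost without any 1 of the 3 Control libraries or Combination replicate 2 or 3 (adjusted p from 0.068 to 0.19). Across 224 bases, HIST1H2BK fell by 0.23 while its partner HIST1H2AH rose by 1.49 ± 0.40 (adjusted p = 0.000582). The mean Control levels of HIST1H2AH and HIST1H2BF were under the 0.354 CPM minimum of the low-count filter, so their rises were favoured. The difference within a pair was not tested.

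Promoters are shown for HIST1H2AC, its partner HIST1H2BC and HIST1H2BK, from the opposite-sign pairs, and for a pair of H4 genes that rose. Each run gives 120 bases upstream of the RefSeq start (GRCh38.p14), 5′ to 3′ on the gene's strand, with 3 motifs, on either strand, in capitals. They are the CCAAT box, the TATA box as TATAAA, and the octamer as ATTTGCAT.
HIST1H2AC, chr6:26124052-26124171, plus strand: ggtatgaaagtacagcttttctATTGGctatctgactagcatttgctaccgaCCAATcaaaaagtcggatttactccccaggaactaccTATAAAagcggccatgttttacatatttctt
HIST1H2BC, chr6:26123927-26124046, minus strand: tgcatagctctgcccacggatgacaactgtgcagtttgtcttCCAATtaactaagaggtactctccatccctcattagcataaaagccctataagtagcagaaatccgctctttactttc
HIST1H2BK, chr6:27146859-27146978, minus strand: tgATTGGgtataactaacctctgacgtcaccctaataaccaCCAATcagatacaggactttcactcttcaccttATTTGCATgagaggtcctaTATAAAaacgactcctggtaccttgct
HIST1H4E, chr6:26204490-26204609, plus strand: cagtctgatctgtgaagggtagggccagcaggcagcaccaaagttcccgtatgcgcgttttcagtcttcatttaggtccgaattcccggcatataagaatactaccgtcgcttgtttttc
HIST1H4B, chr6:26027284-26027403, minus strand: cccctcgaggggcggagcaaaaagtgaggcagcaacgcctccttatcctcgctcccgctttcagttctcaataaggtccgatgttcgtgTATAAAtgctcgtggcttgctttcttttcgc
Promoter windows of 250 bases before to 50 after the start were matched for 60 of the 73 genes, which do not include HIST1H4C or HIST1H2AH. CCAAT was in 51 of 60, against 35.7% of 27305 promoters. It was in all 48 H1, H2A, H2B and H3 promoters and in 3 of 12 H4 promoters. TATAAA was in 38 of 60 (12% of all promoters). The octamer was in 26 of 60 (1.80% of all promoters), of which 14 were H2B, 11 H2A, 1 H3 and 0 H4. Windows of head-to-head H2A and H2B genes overlap and both strands were searched, so the same site can count for both genes. The H3 gene with an octamer, HIST1H3D, has the same window as HIST1H2AD. The octamers counted for HIST1H2AC and HIST1H2BC do not lie within the 120 bases shown. Of these motifs, CCAAT was the only one less frequent in H4 than in each of the other types. A match is no evidence that a factor binds.

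By position, 2 of the HIST1 blocks had a share of rises above the 35.0% of all genes, with genes tested only through the Combination counted in. HIST1 on chromosome 6 holds 56 of the genes, in 4 blocks more than 200000 bases apart. In the block chr6:26017032-26285499, 12 of 23 tested genes rose and 1 fell, and the summed level was 1.74 times Control (49.6 ± 2.82 against 28.4 ± 4.65 CPM, SD, n = 3). This sum includes HIST1H4C, which held 4.83% of all histone reads in Control and 14.6% in the Combination. In the block chr6:27807479-27893891, 7 of 11 rose and none fell, with a sum 1.73 times Control (9.09 ± 1.64 against 5.25 ± 1.06). The 7 include HIST1H2BL, HIST1H4L and HIST1H2BO, and the 12 of the block before include HIST1H4B. These were tested only through the Combination and had to be higher there, so they are no support for a share above that of all genes. In the block chr6:27132316-27147562, which holds HIST1H2BK, 1 of 4 rose and 1 fell, with a sum 0.910 times Control. The 3 genes of the block chr6:25726063-25732861 had no count in any library. HIST2 and HIST3, both on chromosome 1, had sums 1.42 and 1.39 times Control, with 1 of 4 and 1 of 1 tested genes rising.

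**Figure D3:**
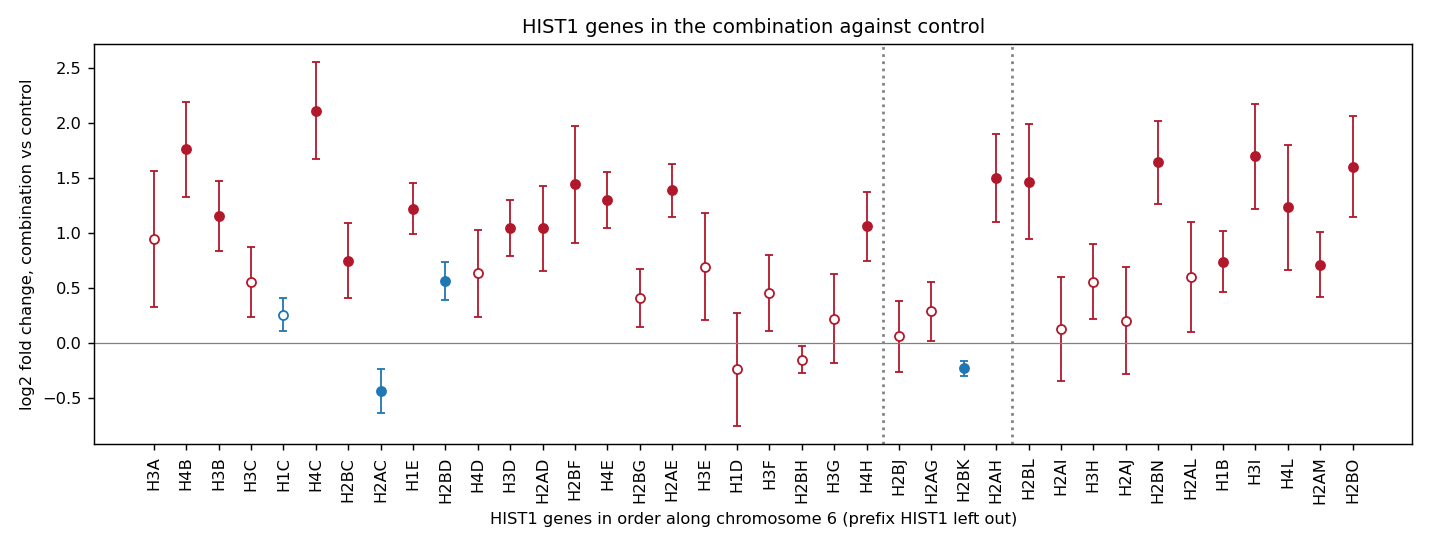
Log2 fold change of the tested HIST1 genes in the Combination against Control (y axis, error bars are standard errors), in order along chromosome 6 (x axis), with dotted lines between blocks; filled points passed the test and blue points are on the list with polyadenylated transcripts. Values above 0 are found in every block drawn, and the 2 filled points below 0, HIST1H2AC and HIST1H2BK, are both blue.

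EC359 alone changed few histone genes. Against Control, 5 of 43 rose (background 30.8% of all genes) and 3 fell (background 30.3%), with a median log2 value of 0.05. The genes that rose were HIST1H2BN (1.51 ± 0.38, adjusted p = 0.000371), HIST1H3I (1.43 ± 0.48, adjusted p = 0.00659), HIST2H2BF (1.09 ± 0.40, adjusted p = 0.0132), HIST1H2AE (0.71 ± 0.25, adjusted p = 0.0126) and HIST1H1E (0.62 ± 0.24, adjusted p = 0.0211). Of these, HIST1H2BN, HIST1H3I and HIST2H2BF had mean Control levels under the 0.354 CPM minimum of the low-count filter, so a rise was favoured. Without EC359 replicate 2 the number that rose was 2, with HIST1H1E, HIST1H2AE and HIST1H3I no longer called (adjusted p = 0.10, 0.051 and 0.080), and without Control replicate 2 it was 9. HIST2H2BF was lost without Control replicate 1 (adjusted p = 0.065) or EC359 replicate 3 (0.062), and HIST1H1E without Control replicate 3 (0.10). Scaled to library totals only, the median log2 value of all genes shifted to -0.15 and that of the histone genes to -0.08.

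Of the 5 genes listed for polyadenylated transcripts, 2 fell with EC359, where 30.3% of all genes fell, and 3 did not pass the test. HIST1H2BK fell by 0.54 on the log2 scale (SE 0.07, adjusted p = 4.07e-09), to 0.686 of Control. HIST1H2AC fell by 0.88 (SE 0.21, adjusted p = 0.000235), to 0.544 of Control. In both genes the EC359 libraries lay below all Control libraries. The third gene that fell was HIST2H2BA, a pseudogene at chr1:121108441-121117251, far from the rest of HIST2, with 17, 10 and 6 counts in Control and 2, 1 and 1 with EC359. The ratio of its group totals, each relative to library size, was 0.131 (95% counting interval 0.0337 to 0.368, adjusted p = 0.00105). HIST2H2BA passed the filter on low counts only through its Control and Trametinib libraries, so a lower value with EC359 was favoured. The H2B sum was 27.4 ± 0.131 CPM against 32.1 ± 1.51 in Control, without overlap. Without HIST1H2BK the H2B sum was 15.4 ± 0.822 against 14.5 ± 0.890.

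Trametinib alone changed 1 histone gene. HIST1H2BN, at 0.655, 0.570 and 0.616 CPM against 0.321, 0.254 and 0.324 in Control, rose by 1.03 ± 0.39 on the log2 scale (adjusted p = 0.0360), where 13.0% of all genes rose. The mean Control level of HIST1H2BN was under the 0.354 CPM minimum of the low-count filter, so a rise was favoured. No histone gene fell, where 15.2% of all genes did. At an unadjusted p under 0.05, 2 histone genes fell, and DESeq2 called 1 lower and 0 higher. The HIST1H2BN call was lost whichever of the 6 libraries was left out (adjusted p from 0.055 to 0.12). The H4 sum was 3.86 ± 0.448 CPM against 6.19 ± 2.30 in Control, and 4 of the 6 tested H4 genes had log2 values below 0, none past the test. The median log2 value over all 43 was 0.05.

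**Figure D4:**
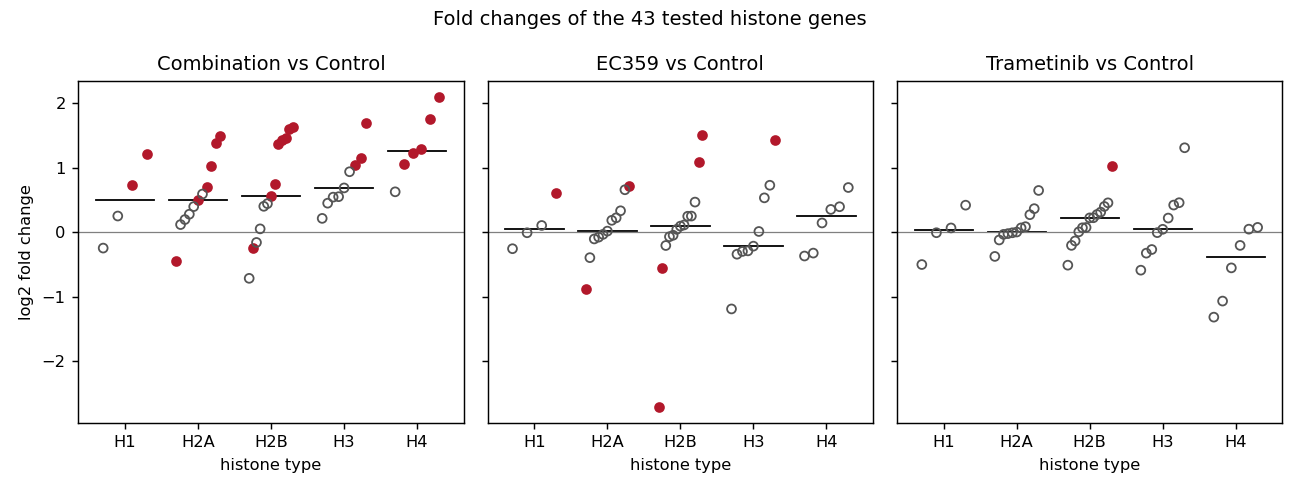
Log2 fold change (y axis) of each of the 43 tested histone genes by type (x axis) for the 3 treatments against Control; filled points passed the test, open points did not, and lines are medians. In the Combination the H4 median is 1.26, against 0.25 with EC359 and -0.37 with trametinib.

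Against each agent alone, the Combination was again higher in many histone genes. Against EC359, 17 of 43 were higher (background 24.1%) and 0 lower (background 25.2%; 1 at an unadjusted p under 0.05, and 0 by DESeq2), with a median log2 value of 0.67 against 0.00 over all genes. The number higher was 11 without Combination replicate 3 or EC359 replicate 2, 10 without EC359 replicate 3, and 11 by DESeq2. Against trametinib, 19 were higher (background 35.3%) and 2 lower (background 32.9%), with a median of 0.56. HIST1H4B and HIST1H2BO, counted in both comparisons, and HIST1H4L and HIST1H2BL, counted against trametinib, were tested only through the Combination and so had to be higher there. These comparisons share the Combination libraries with those above and are not independent of them.

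HIST1H4C stood 2.47 ± 0.47 above EC359 (adjusted p = 0.00204) and 3.42 ± 0.51 above trametinib (adjusted p = 0.000247) on the log2 scale, the latter a 10.7-fold difference. Against trametinib, 16 of the 43 histone genes were higher by at least 2-fold, where 6.12% of all genes were, and the 16 include the 4 genes tested only through the Combination. The H4 genes among them that did not depend on the Combination to be tested were HIST1H4C, HIST1H4H (1.01 ± 0.31, adjusted p = 0.00347), HIST1H4E (1.84 ± 0.28, adjusted p = 2.64e-08) and HIST1H4D (1.69 ± 0.48, adjusted p = 0.000842). The mean HIST1H4D level with trametinib was under the 0.354 CPM minimum of the low-count filter, so a higher value than with trametinib was favoured. HIST1H3A, with 1, 1 and 3 counts in the EC359 libraries, was 4.60 times its EC359 level in group totals (95% counting interval 1.71 to 15.5, adjusted p = 0.0144), a call lost without Combination replicate 3 (adjusted p = 0.16) or EC359 replicate 2 (0.068). HIST1H3A passed the filter only through its Trametinib and Combination libraries, so a higher value than with EC359 was favoured. HIST1H2BK was 0.31 ± 0.08 higher than with EC359 (adjusted p = 0.000504) and 0.31 ± 0.07 lower than with trametinib (adjusted p = 0.000125). HIST1H2AC was 0.72 ± 0.20 lower than with trametinib (adjusted p = 0.00129), and against EC359 its log2 value was 0.44 ± 0.22 (adjusted p = 0.0905).

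The interaction term asks whether the Combination differed from the sum of the single-agent changes on the log2 scale. It was positive in 5 of 43 histone genes (background 14.4%) and negative in 0 (background 15.9%; 1 at an unadjusted p under 0.05, and 0 by DESeq2). The 5 were H4 and H3 genes: HIST1H4C (3.79 ± 0.71, adjusted p = 0.00363), HIST1H4D (2.01 ± 0.65, adjusted p = 0.0114), HIST1H4E (1.70 ± 0.39, adjusted p = 0.000500), HIST1H3B (1.68 ± 0.49, adjusted p = 0.00686) and HIST1H3C (1.43 ± 0.49, adjusted p = 0.0195). In each, the log2 values of trametinib alone were below 0 without passing the test (-1.31, -1.06, -0.55, -0.32 and -0.58 in that order). Without Control replicate 2, the library with the highest HIST1H4C level of its group, the count was 3, and HIST1H3B (adjusted p = 0.084) and HIST1H3C (0.13) were no longer called. HIST1H3C was also lost without Combination replicate 3 (adjusted p = 0.064) or Trametinib replicate 2 (0.072). Without Combination replicate 1, HIST1H4D was not called (adjusted p = 0.057).

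Other RNAs that lack a poly(A) tail were also higher in the Combination. Of a list of 437 small nucleolar, small Cajal body and other small noncoding RNA genes, 171 were tested, and in the Combination 96 rose and 6 fell against Control (background 35.0% and 34.7%), with a median log2 value of 0.73. How many of the 171 were tested only through the Combination was not counted. With EC359, 50 rose and 5 fell (background 30.8% and 30.3%), and with trametinib 0 rose and 3 fell (background 13.0% and 15.2%). Their summed level was 339, 458 and 332 CPM in Control, 427, 403 and 393 with EC359, 326, 351 and 346 with trametinib, and 512, 594 and 618 in the Combination. Control replicate 2 was the highest of its group in this sum, in the histone sum (60.5, 74.9 and 60.6 CPM) and in HIST1H4C. SNORA21, which guides pseudouridylation, was at 0.163 ± 0.0457 CPM in Control and 2.60 ± 0.626 in the Combination (SD, n = 3), a log2 rise of 3.98 ± 0.41 (adjusted p = 2.19e-15). Its Control level was under the 0.354 CPM minimum of the low-count filter. It was thus tested through groups where it was higher, and a rise over Control was favoured. RN7SL2, the most abundant of the list, was at 54.6 ± 26.0 CPM in Control and 59.4 ± 19.7 in the Combination (SD, n = 3, adjusted p = 0.778). Many small nucleolar RNA genes lie inside introns of host genes on the same strand, and reads of unspliced host RNA count toward them. The part of these RNAs in the histone result was not tested.

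**Figure D5:**
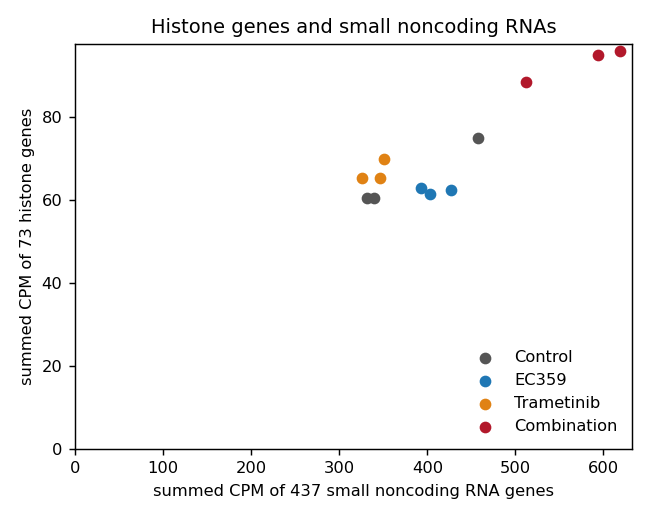
Summed CPM of the 73 histone genes (y axis) against the summed CPM of 437 small noncoding RNA genes (x axis), with a point for each of the 12 libraries coloured by condition. The 3 Combination libraries are highest in both sums, and 1 Control library, replicate 2, lies apart from the other 2 in both.

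The machinery that makes and removes histone messages moved in both directions. Of 24 genes for processing and decay of histone mRNA, 10 rose and 11 fell in the Combination (background 35.0% and 34.7%), with a median log2 value of -0.08. TUT1, a terminal uridylyltransferase, fell by 1.39 on the log2 scale (23.7 ± 1.43 CPM in Control, SD, n = 3; adjusted p = 2.25e-25), and COIL, the scaffold of Cajal bodies, fell by 1.18 (adjusted p = 1.81e-26). ZCCHC6, also a terminal uridylyltransferase, rose by 1.13 ± 0.05 (adjusted p = 1.45e-29). SLBP itself was at 95.9 ± 0.559 CPM in Control and 102 ± 2.31 in the Combination, a log2 rise of 0.09 ± 0.03 (adjusted p = 0.0180). CDK2, which activates the histone transcription factor NPAT, rose by 0.10 ± 0.03 (adjusted p = 0.000644), and NPAT rose by 0.23 ± 0.04 (adjusted p = 1.75e-06).

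Replacement histones, most of whose messages are polyadenylated and made through the cell cycle, moved in both directions. Of 12 tested, 4 rose and 6 fell in the Combination (background 35.0% and 34.7%), with a median log2 value of -0.11. Their sum was 2981 ± 40.9 CPM in Control and 2751 ± 64.4 in the Combination. H3F3B, which encodes H3.3, fell by 0.48 on the log2 scale (adjusted p = 9.18e-27). H2AFX, which encodes H2A.X, fell by 0.56 in the Combination (adjusted p = 1.51e-22) and by 0.72 with EC359 (adjusted p = 8.8e-27). H2AFY2, for a macroH2A, fell by 0.56 (adjusted p = 2.91e-16), and H3F3C, for an H3 variant, by 0.50 (adjusted p = 0.000182).

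Histone chaperones and replication genes also held both rises and falls. Of 20 chaperone genes, 6 rose and 7 fell, near the 35.0% and 34.7% of all genes, with a median of -0.01. ASF1A, which hands H3 and H4 to assembly factors, fell by 0.95 (adjusted p = 4.34e-23), while UBN2, a partner of the HIRA chaperone, rose by 1.01 ± 0.05 (adjusted p = 7.47e-24) and ATRX, a chromatin remodeler, by 0.88 ± 0.05 (adjusted p = 3.80e-24). SSRP1, a subunit of the FACT complex and the most abundant of the list, had a log2 value of 0.04 ± 0.02 (adjusted p = 0.177). Of 37 S-phase replication genes, 20 rose and 11 fell in the Combination (background 35.0% and 34.7%), with a median of 0.08. With EC359, 20 rose and 9 fell (background 30.8% and 30.3%), with a median of 0.14. In the Combination E2F1 rose by 1.07 ± 0.04 (adjusted p = 3.16e-33) and E2F2 by 0.87 ± 0.07 (adjusted p = 2.04e-15), both transcription factors of the entry into S phase. CCNA2, a cyclin of S phase and G2, fell by 0.88 (adjusted p = 2.31e-34), and MCM4, a helicase subunit, had a log2 value of 0.01 ± 0.03 (adjusted p = 0.747). The list's sum was 5091 ± 25.5 CPM in Control, 5524 ± 36.3 with EC359 and 5513 ± 27.0 in the Combination, and the histone sum was 65.3 ± 8.32, 62.2 ± 0.758 and 93.2 ± 4.07 CPM in the same groups.

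Of 30 other genes inside the HIST1 region, 20 were tested, and in the Combination 4 rose and 11 fell (background 35.0% and 34.7%), with a median log2 value of -0.27. Their sum was 428 ± 3.07 CPM in Control and 385 ± 1.96 in the Combination. ZNF391, a zinc finger gene, fell by 1.04 (adjusted p = 1.88e-07), LOC100270746 by 1.82 (adjusted p = 0.000231) and LINC00240 by 1.62 (adjusted p = 0.000461). HMGN4, a nucleosome-binding protein and the most abundant of them, fell by 0.15 (adjusted p = 4.26e-05).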

How the data were processed

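OVCAR8 libraries were made from polyadenylated RNA with a stranded kit. The deposited values are expected counts per gene that the authors made with featureCounts (reads of low mapping quality left out, multi-mapped reads shared as fractions, stranded), on the genome build hg38; HISAT2 alignment is per the labels' processing notes. Counts were rounded and tested with edgeR 4.0.16 (robust quasi-likelihood, TMM scaling, filterByExpr, all 12 libraries, Benjamini-Hochberg over 14865 genes, threshold 0.05) in R 4.3.3, and the code was tested on simulated data. Histone genes were taken by name. The members and lists were chosen with earlier results of these data known. Named histone genes were those with a mean of at least 1 CPM, the 2 most abundant of each type, and the 3 largest called rises and falls of each comparison. From each list the 3 largest called changes in the Combination and the most abundant gene were named. SNORA29 and SNORD42B, under 0.2 CPM in Control, were left out, while SNORA21, also under 0.2 CPM there, was kept. Others, such as HIST1H2AH, HIST1H2BC, HIST1H2AD, HIST1H4H, HIST1H4L, HIST1H2BL, HIST1H3C, SLBP and NPAT, were named after their values were seen. Intervals at 95% and floors of 3 counts cover counting error only. Alternatives were DESeq2 1.42.0, other scalings and filters, fits of fewer libraries and a replicate block.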

Additional observations from a re-analysis of the deposited data

Results flagged for a closer look

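In 5 histone genes the effect of adding EC359 differed between cells with and without trametinib, by the interaction test. The log2 interaction was 3.79 for HIST1H4C, 2.01 for HIST1H4D, 1.70 for HIST1H4E, 1.68 for HIST1H3B and 1.43 for HIST1H3C. These 5 of 43 are a smaller share than the 14.4% of all genes with a positive interaction. HIST1H3B and HIST1H3C were not called without Control replicate 2 (adjusted p = 0.084 and 0.13). Conditions had 3 libraries each, too few to test single libraries for standing apart.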

How the results depend on the processing

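The 76 called values of histone genes had 1059 values under alternatives, of which 947 kept direction and call, 112 lost the call and 0 reversed. Among alternatives other than leaving out a library, histone genes higher in the Combination than Control numbered 14 with a filter of 0.5 CPM, and those lower numbered 1 with DESeq2, without a low-count filter, with the compared groups only or with the replicate block, and 0 at 2-fold. For EC359, 3 were higher and 1 lower at 2-fold. For trametinib, DESeq2 gave 0 higher and 1 lower. Above EC359 the Combination had 11 with DESeq2 and 8 at 2-fold. Against trametinib it had 11 higher with the CPM filter and 0 lower at 2-fold. Leaving out each library in turn gave, for Combination against Control, 17 to 22 higher and 1 to 2 lower (1 without Control replicate 1 or 3 or Combination replicate 1 or 2), for EC359 2 to 9 and 3 to 3, for trametinib 0 to 1 and 0 to 0, for Combination against EC359 10 to 18 and 0 to 1, against trametinib 15 to 20 and 2 to 3, and for the interaction 3 to 6 and 0 to 0. The causes were not tested.

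Replicate numbers did not pair the libraries. Same-numbered libraries of different groups correlated at -0.067 to 0.030 over 18 pairs, with 1 of 12 libraries correlating best with its own number. With the replicate block, the call of HIST1H2AC in the Combination was lost (log2 -0.44, adjusted p = 0.052). Low depth limits the 29 tested genes under 1 CPM most.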
